A study of Caenorhabditis elegans with 3 samples.

Results

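Regions of tagged MML-1 at its own gene, mml-1, and at the Max-like genes mxl-1 and mxl-2 were described from chromatin immunoprecipitation and sequencing (ChIP-seq). The 3 genes were chosen by name from 19973 protein-coding genes, and a region was given to a gene when its summit lay in the gene body or within 5 kb of it. These windows held 2 of the 195 reproducible peaks, 23 of the 30000 pooled regions, and 22, 21 and 13 of the 30000, 30000 and 27021 regions of replicates 1, 2 and 3. Reproducible peaks are those of the list the authors thresholded by the irreproducible discovery rate, a measure of agreement between replicates. That list holds the 195 pooled regions of highest signal, and a peak in it need not have a near summit in every replicate. The pooled and replicate lists also hold background, so a region there is a candidate and not a binding site. All 3 replicates came from whole L3 larvae of both sexes of Caenorhabditis elegans strain OP198, which carries unc-119(ed3) III and the integrated array wgIs198. The array expresses MML-1 fused to GFP and FLAG at its C terminus, and by design also carries a working copy of unc-119. The labels also call the tag eGFP, and the promoter that drives the fusion is not given in the sources used here. The study has no second condition, and animals were pooled. Replicates 1 and 2 came from a stock centre, while replicate 3 came from the submitting laboratory. The labels give a size range for replicates 1 and 2 and a fragmentation method, sonication, for replicate 3. These differences move together and cannot be told apart. The labels call the samples biological replicates, and nothing in the sources used here says how the cultures were grown.

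MML-1 is the worm member of the Mondo family of basic helix-loop-helix leucine zipper factors, whose mammalian relatives sense glucose-derived signals. It binds DNA as a dimer with MXL-2, the counterpart of mammalian Mlx, while MXL-1 is a Max-like protein that pairs with the Mad-like protein MDL-1. Dimers of this family recognise E-boxes, and CACGTG is the best known of them. Because mml-1 is present both on its chromosome and in the array, the lists cannot show which copy a region comes from.

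The mml-1 gene (WBGene00003378) lies on the minus strand of chromosome III, 7370130 to 7374731, and both of its reproducible peaks lay upstream of it in intergenic sequence. Their sequences are shown because they are the member regions in the authors' reproducible list, and because they differ in the E-box. Capitals mark CACGTG, and both runs are on the plus strand of ce11. The peak at chrIII:7376444-7376727, of pooled rank 151, held CACGTG at 2 places whose starts lay 139 bp apart. Their centres lay 28.5 and 110.5 bp from the summit. The peak at chrIII:7375536-7375819, of pooled rank 175, held none.
mml-1 peak of rank 151: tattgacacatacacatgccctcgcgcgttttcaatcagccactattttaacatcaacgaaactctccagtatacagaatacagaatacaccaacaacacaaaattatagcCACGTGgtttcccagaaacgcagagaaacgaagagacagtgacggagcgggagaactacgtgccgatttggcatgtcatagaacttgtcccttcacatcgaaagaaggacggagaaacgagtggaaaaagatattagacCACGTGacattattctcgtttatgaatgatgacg
mml-1 peak of rank 175: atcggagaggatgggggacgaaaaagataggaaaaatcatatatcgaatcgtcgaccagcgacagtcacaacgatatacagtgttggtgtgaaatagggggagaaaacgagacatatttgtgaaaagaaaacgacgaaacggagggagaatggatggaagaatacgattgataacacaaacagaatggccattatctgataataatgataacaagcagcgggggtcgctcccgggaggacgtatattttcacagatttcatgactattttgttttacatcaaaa

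The mml-1 window held 2 reproducible peaks and those of mxl-1 and mxl-2 held 0. Over all protein-coding genes, 1.88% had at least 1 reproducible peak in the same kind of window and 0.355% had at least 2. The authors' reproducible list ends at pooled rank 195, and the first region past it has a signal of 25.8. The signals of the mml-1 peaks were 30.1 and 27.4, so both lay in the lower part of that list. Signal is the authors' value per region and is comparable only inside its own list, so ranks are given throughout.

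The peak of rank 151 lay 1855 bp upstream of the mml-1 start and was found at a high rank in every replicate. Its ranks were 128, 189 and 173 in replicates 1, 2 and 3, and its signals there 15.2, 10.1 and 11.4. Each replicate summit lay within 78 bp of the pooled summit.

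The peak of rank 175 lay 947 bp upstream and varied more between replicates. It ranked 223 in replicate 1 and 88 in replicate 2, with signals of 12.2 and 12.9. In replicate 3 the region nearest to its summit ranked 2825 with a signal of 5.14. A stronger region of replicate 3, of rank 366 and signal 8.58, had its summit 739 bp upstream of the start. That summit lay 208 bp from the pooled one, just past the 200 bp used here to match summits. The pooled list was made from the same 3 replicates, so these matches are not independent of it.

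A broad set of weaker regions surrounded these peaks. The mml-1 window held 17 pooled regions, and 0.265% of protein-coding genes had as many. The replicates had 14, 15 and 10 regions there, or 13 ± 2.65 (SD, n = 3), while the median gene had 4 regions in the pooled list, 4 in replicates 1 and 2, and 3 in replicate 3. Replicate 3 was the lowest at mml-1 and was still above the 90th percentile of genes in its list, 6 regions. Signals of the 17 pooled regions ran from 6.03 to 30.1, with a median of 12.7. Of the 17, 6 ranked among the first 1000, which are by definition 1000 of all 30000 pooled regions.

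**Figure D1:**
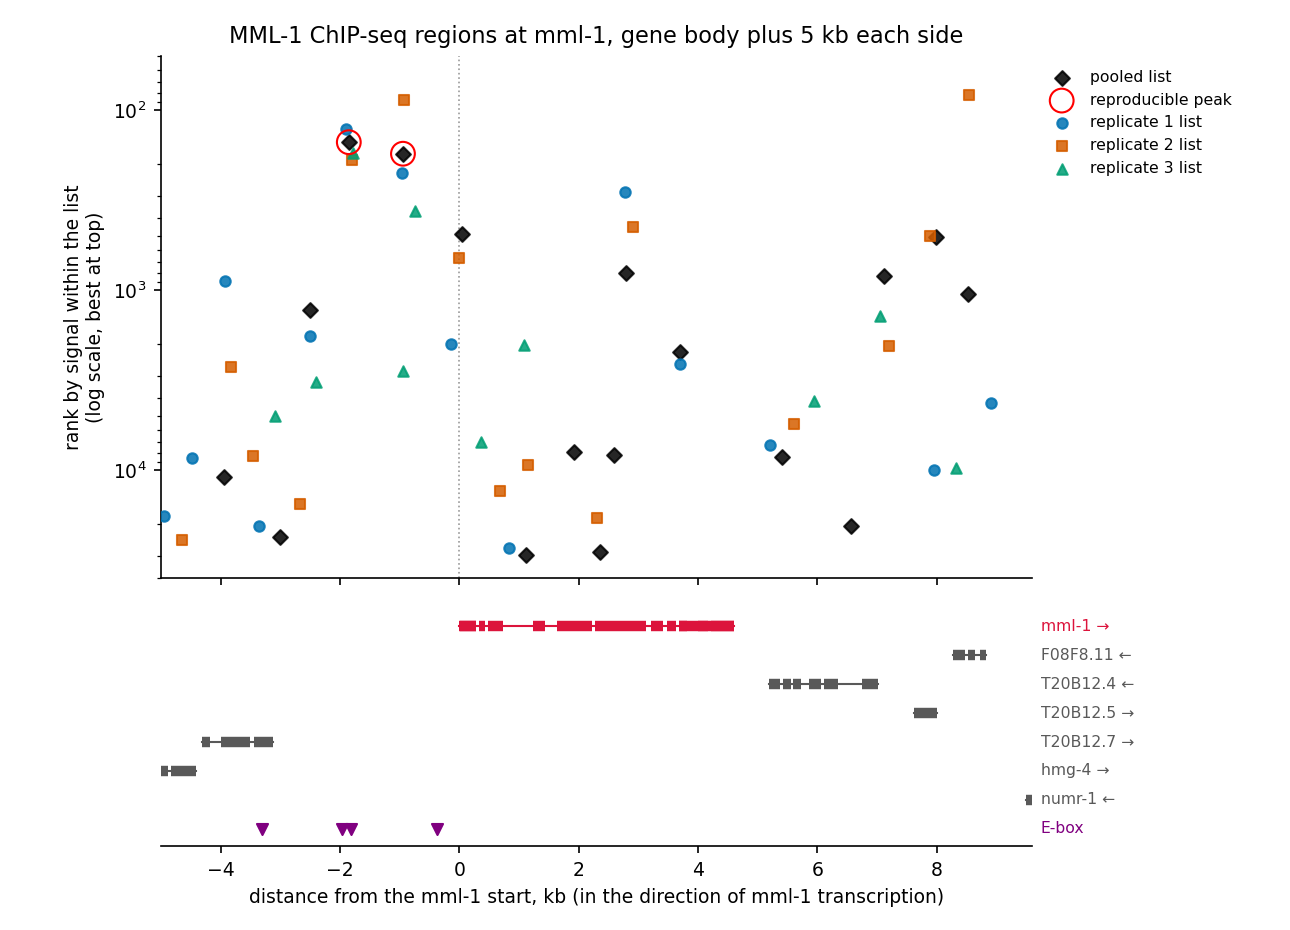
Rank by signal within each list (log scale, best at the top) of every region at mml-1, against the distance of its summit from the mml-1 start in kb, with genes and E-boxes (CACGTG) drawn below. The 2 circled reproducible peaks, of pooled ranks 151 and 175, lie upstream of the start, and the other 15 pooled regions spread across the window.

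The next 3 regions by pooled rank had their pooled summits in coding exons and not upstream of mml-1. A pooled region of rank 491 and signal 18.0 spanned the mml-1 start, with its summit 38 bp downstream of it and in a coding exon. In replicate 1 it ranked 1990, with an intergenic summit 144 bp upstream of the start. In replicate 2 it ranked 661, with a summit at the start in the 5′ UTR, and replicate 3 had no summit within 200 bp. A region of rank 807 lay in a coding exon 2793 bp downstream of the start, at ranks 284 and 448 in replicates 1 and 2 and with no match in replicate 3. With matches within 200 bp, both therefore rest on replicates 1 and 2. Replicate 3 had a region of rank 6993 with its summit 327 bp from that of rank 491, and none within 500 bp of that of rank 807.

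Beyond the 3′ end of mml-1, a region of rank 510 lay in a coding exon of T20B12.5 and ranked 9958 in replicate 1 and 499 in replicate 2. A region of rank 840, 7120 bp downstream of the mml-1 start and nearest to the start of T20B12.4, ranked 2059 in replicate 2 and 1389 in replicate 3. The highest rank in any replicate list at mml-1, 83, belonged to a replicate 2 region in a coding exon of F08F8.11. The pooled region there ranked 1054, replicate 1 had no match, and replicate 3 had rank 9773. High ranks at this far end of the window were thus not shared by the 3 replicates.

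By place, 5 of the 17 pooled summits were upstream of mml-1, 7 in the gene body and 5 beyond its 3′ end. The gene body held 3, 5 and 2 regions in replicates 1, 2 and 3, of which 1, 2 and 0 ranked among the first 1000 of their list. Those lists hold 30000, 30000 and 27021 regions. By nearest transcript start, 8 of the 17 belonged to mml-1, 4 to T20B12.4, 3 to T20B12.7, 1 to T20B12.5 and 1 to F08F8.11. More of the summits were thus nearest to a neighbour's start than to that of mml-1 itself.

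Coding exons held 9 of the 17 summits, or 52.9%, while 28.4% of all pooled regions lay in coding exons. The bases of the mml-1 window were 42.4% coding. Of the 6 mml-1 regions among the first 1000, 3 lay in coding exons, against 11.1% of all the first 1000 pooled regions and 2.05% of the reproducible peaks. These 3 include the region of rank 491, whose matched replicate summits were not in coding exons. The remaining mml-1 summits were 3 in introns and 5 in intergenic sequence. Copy number of the array was not measured here.

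Few of the weaker regions were matched in every replicate, and how many depended on the match. Of the 17 pooled regions at mml-1, 3 had a summit within 200 bp in every replicate, or ranks 151, 175 and 1289, and 4.91% of all pooled regions were matched in this way. The number was 8 with matches within 500 bp, 6 without replicate 1 and 7 without replicate 3. By construction, a wider match or fewer replicates can only keep or raise the number. Within 200 bp, a further 7 were matched in 2 replicates, 5 in 1 replicate and 2 in none. Shares over all pooled regions were not taken for these other counts, so they cannot be set against the whole list. The region of rank 1289 lay 2503 bp upstream and ranked 1803, 15514 and 3230 in replicates 1, 2 and 3. Pooled regions of ranks 807 and 8230 overlap and were matched to the same replicate 1 region, so the matched regions are not all separate.

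E-boxes were then compared with the summits. CACGTG, searched on both strands within 100 bp of the summit, was in 1 of the 17 pooled regions at mml-1, or 5.88% (95% exact Clopper-Pearson interval 0.149 to 28.7, for counting error only). It was in 4.67% of all pooled regions and in 59.5% of the reproducible peaks. CACATG, another form of CANNTG, was in 3 of the 17, or 17.6%, against 7.97% of pooled regions and 30.8% of reproducible peaks. The mml-1 peak of rank 175 held neither of these hexamers nor any other CANNTG within 100 bp of its summit. A pair of CANNTG hexamers separated by 5 bp was in 0 of the 17 regions (exact 95% interval up to 19.5%), in 0.520% of pooled regions and in 13.8% of reproducible peaks.

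In reverse, the windows were searched for every CACGTG. The mml-1 window held 4, at 368, 1826, 1965 and 3312 bp upstream of its start, and 1 of them lay within 100 bp of a pooled summit. The mxl-1 window held 1 and the mxl-2 window held 5, and none of these 6 lay as near to a pooled summit. Over all 6 chromosomes, 8.58% of 17729 CACGTG sites had a pooled summit within 100 bp. Sites with no near summit follow with their flanks, on the plus strand of ce11 and with CACGTG in capitals, for comparison with those of the mml-1 peak. They are the site nearest to the mml-1 start, at chrIII:7375085-7375114, the mxl-1 site at chrV:11248838-11248867, and the mxl-2 site nearest to a pooled summit, at chrIII:192621-192650.
mml-1 site 368 bp upstream: cagttgttacaaCACGTGaccgactaaaag
mxl-1 site 4013 bp downstream: gcgtggatgttcCACGTGtaaatcaacagt
mxl-2 site 4504 bp upstream: accgtgaaaatcCACGTGgaaagccacgaa

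The mxl-1 site lay in a coding exon of the neighbour mam-4 and was 195.5 bp from the nearest pooled summit. The mxl-2 site lay in a coding exon of sec-20, 103.5 bp from the pooled summit of rank 21478. Neither replicate 1, 2 nor 3 had a summit within 100 bp of any of these 3 sites. A missing summit says only that the lists hold no region there.

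The partner gene of MML-1, mxl-2 (WBGene00003510, chromosome III, 186949 to 188131, minus strand), was among the genes with few and weak regions. Its window held 3 pooled regions, and 2, 3 and 0 regions in replicates 1, 2 and 3, or 1.67 ± 1.53 (SD, n = 3). The best ranks were 13798 in the pooled list, 7449 in replicate 1 and 21153 in replicate 2. Of all protein-coding genes, 80.3% had a best pooled rank as good or better. Replicate 3 had no region in the window, which is a statement about its list and not a limit on binding, since the depth is unknown.

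All 3 pooled regions at mxl-2 lay upstream of it and in neighbouring genes. The best, of rank 13798, was 2416 bp upstream in a coding exon of ubc-20, which encodes a ubiquitin-conjugating enzyme, and had no summit within 200 bp in any replicate. That of rank 25198 was in a coding exon of cox-17 and was matched in replicate 1 at rank 20582. That of rank 21478 was in an intron of sec-20 and was matched in none. Within the mxl-2 body itself only replicate 2 had a region, of rank 29542, near the end of its list.

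The other Max-like gene was mxl-1 (WBGene00003509, chromosome V, 11244839 to 11245926, plus strand). Its window held 3 pooled regions, against 4 at the median gene. Replicates 1, 2 and 3 had 6, 3 and 3 regions there, or 4 ± 1.73 (SD, n = 3). The median gene had 4, 4 and 3 in those lists. The best ranks were 10425 in the pooled list and 7083, 7278 and 1397 in replicates 1, 2 and 3. A best pooled rank as good or better was found at 70.8% of protein-coding genes.

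None of the 3 pooled regions at mxl-1 was matched in more than 1 replicate. The region of rank 10425 had its summit 201 bp upstream of mxl-1, in the 3′ UTR of pgap-1, and was matched in replicate 2 at rank 7278. That of rank 18445 lay 962 bp upstream in a coding exon of pgap-1, with rank 23812 in replicate 1. That of rank 20624 lay 4209 bp downstream in mam-4, with rank 11735 in replicate 2. No list had a region in the mxl-1 body, and the replicate 3 region of rank 1397 lay 3877 bp downstream in mam-4, which is nearer to the start of that gene.

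**Figure D2:**
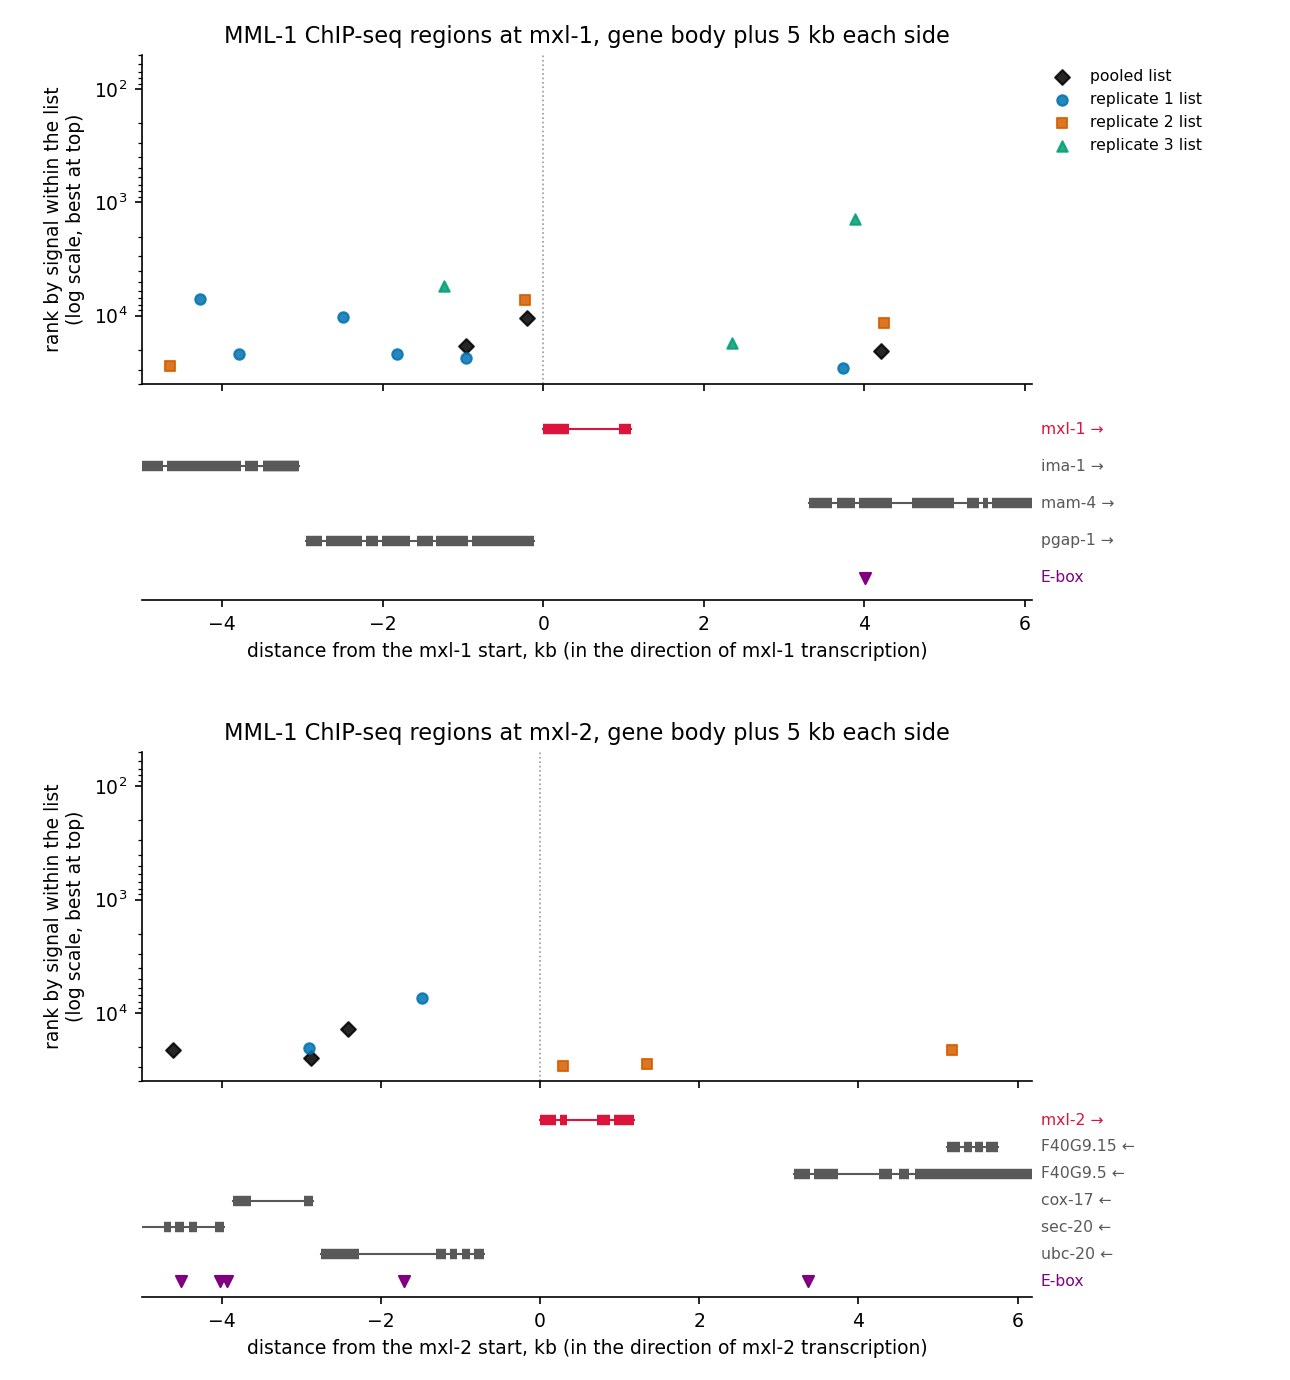
Rank by signal within each list (log scale, best at the top) of every region at mxl-1 (upper panels) and mxl-2 (lower panels), against the distance from each gene's start in kb, with genes and E-boxes (CACGTG) drawn below. All points are ranked worse than 1000, the best being the replicate 3 region of rank 1397 at mxl-1, and no pooled point lies inside either gene.

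The summits of best pooled rank at these genes are shown for contrast with the mml-1 peaks, as 30 bases on the plus strand of ce11, at chrV:11244623-11244652 for mxl-1 and chrIII:190532-190561 for mxl-2. Neither run holds CACGTG, and neither does the wider sequence within 100 bp of the summit.
mxl-1 best summit: ctattgttacatggtctgttttcatatcaa
mxl-2 best summit: acaattgggacatcaatcgctcgacggtct

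Set side by side, mml-1 stood apart from both Max-like genes in every list. Per 10 kb of window, mml-1 had 11.6 pooled regions, mxl-1 2.71 and mxl-2 2.68, with a median of 2.86 over all genes. In replicates 1, 2 and 3 the density was 9.59, 10.3 and 6.85 at mml-1, 5.41, 2.71 and 2.71 at mxl-1, and 1.79, 2.68 and 0 at mxl-2. The mml-1 values did not overlap those of mxl-1 or mxl-2. Those of mxl-1 lay above those of mxl-2 in every replicate, although in replicate 2 both windows held 3 regions and differed only in length. A region among the first 1000 was present in every replicate at mml-1 and in none at mxl-1 or mxl-2, while 1.72% of protein-coding genes had one in every replicate.

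Among 19973 protein-coding genes ordered by pooled density, mml-1 was at place 5, mxl-1 at 10859 and mxl-2 at 11030. By the lists of replicates 1, 2 and 3, mml-1 was at places 25, 14 and 181, mxl-1 at 1659, 11035 and 9379, and mxl-2 at 15095, 11206 and 19048. The other genes of the network, mdl-1 and mxl-3, which encodes a further Max-like protein, were at places 2 and 1 in the pooled list. Their best pooled ranks were 2 and 32. In the pooled list, regions of this network of 5 genes were thus dense at mml-1, mdl-1 and mxl-3, and near the median of all genes at mxl-1 and mxl-2. In replicates 1, 2 and 3 the median gene had 2.86, 2.89 and 2.63 regions per 10 kb. The density at mxl-1 was 5.41, 2.71 and 2.71, above the median in replicates 1 and 3 and below it in replicate 2. At mxl-2 it was 1.79, 2.68 and 0, below the median in every replicate.

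**Figure D3:**
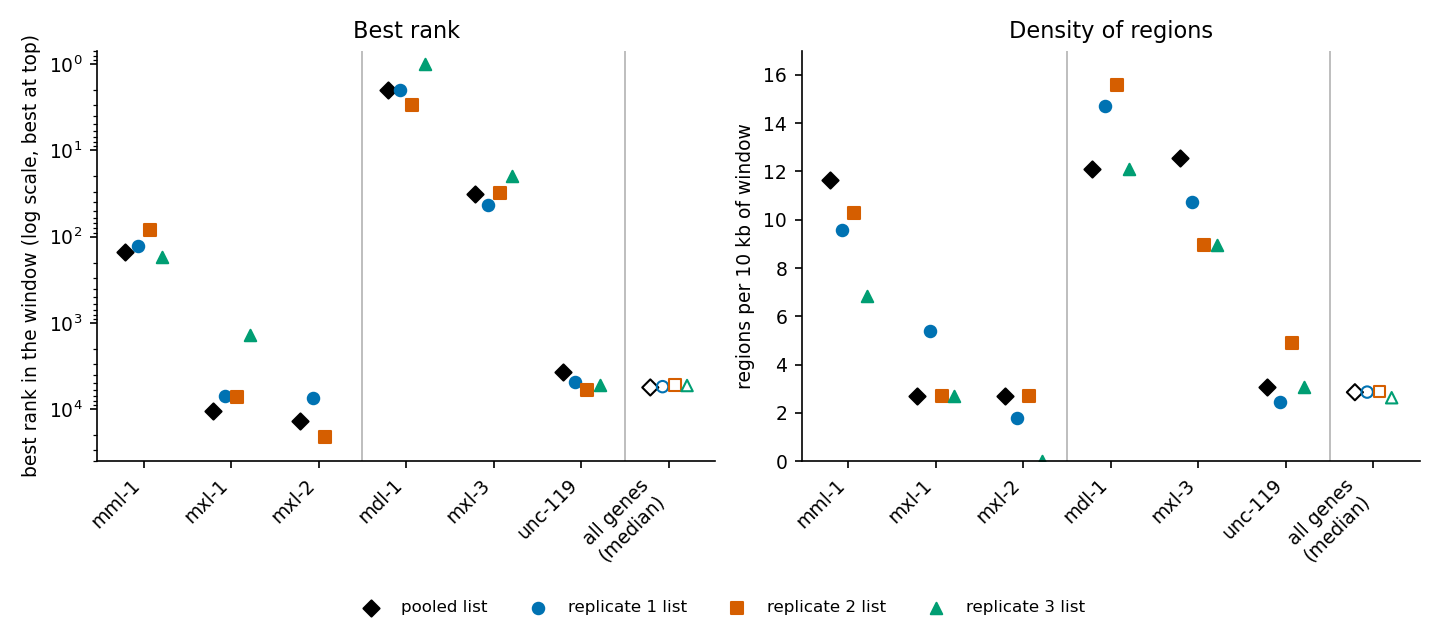
Best rank (left, log scale, best at the top) and regions per 10 kb of window (right) for mml-1, mxl-1 and mxl-2, for mdl-1, mxl-3 and unc-119, and for the median of all protein-coding genes (open symbols), with 1 symbol for each list. At mml-1 the density lies between 6.85 and 11.6, above all values of mxl-1 and mxl-2; mxl-2 has no best rank in replicate 3.

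The array also carries unc-119, so that gene was set beside mml-1. Its window had 5 pooled regions, and 4, 8 and 5 in replicates 1, 2 and 3, with a best pooled rank of 3655 and no reproducible peak. Its density was 3.07 per 10 kb in the pooled list and 2.45, 4.91 and 3.07 in replicates 1, 2 and 3, with replicate 2 the highest. All of these lay below the mml-1 densities of the same lists. The part of the array in either gene's regions was not tested. How much of each gene's surroundings the array carries is not given in the sources used here.

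With distance from mml-1 the regions thinned out. The pooled density was 15.2 per 10 kb in the gene body, 10 within 5 kb of it, 6 from 5 to 10 kb, 8 from 10 to 20 kb, 4.13 from 20 to 50 kb and 4.41 from 50 to 100 kb. The mean over replicates was 7.24 ± 3.32, 9.67 ± 1.53, 4.67 ± 0.577, 5.33 ± 0.764, 3.70 ± 1.94 and 3.84 ± 0.493 in the same bins (SD, n = 3 each). Chromosome III as a whole had 2.99 pooled regions per 10 kb. In all 3 replicates the density within 5 kb, 11, 10 and 8, was above that from 5 to 20 kb.

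A stretch of 51 kb that begins 28.7 kb from mml-1 has no region in any list used here and no annotated gene. It was not analysed here and was left out of these densities, since the lists do not show whether it could have held regions. With the stretch kept, the pooled density was 2.67 from 20 to 50 kb and 3.10 from 50 to 100 kb, and the replicate means were 2.39 ± 1.25 and 2.70 ± 0.346 (SD, n = 3 each). At mxl-1 the replicate mean was 4 ± 1.73 within 5 kb and 2.87 ± 0.681 from 50 to 100 kb, and at mxl-2 it was 1.33 ± 1.15 and 1.87 ± 0.252 (SD, n = 3 each). At both genes these means differed by less than the SD within 5 kb. The mdl-1 gene, on chromosome X, had a replicate mean of 15 ± 1.73 within 5 kb (SD, n = 3). From 50 to 100 kb its mean was 4.83 ± 1.00 (SD, n = 3), so a fall with distance was not particular to mml-1.

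**Figure D4:**
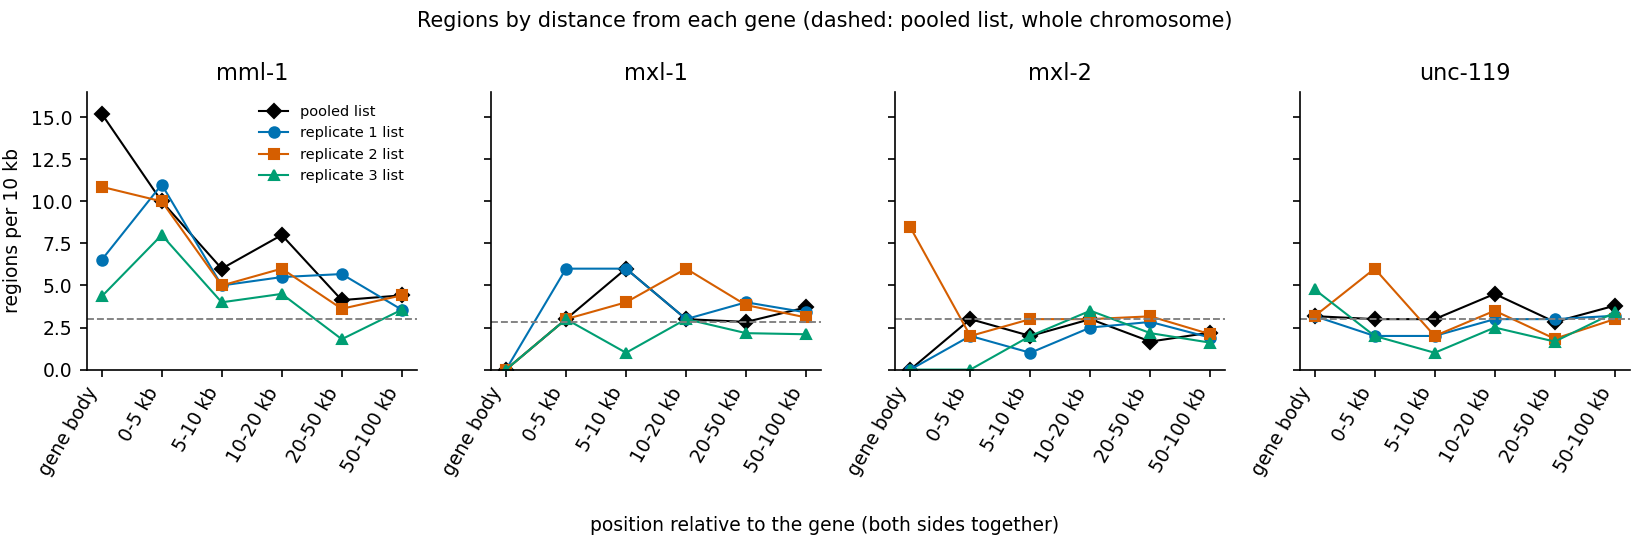
Regions per 10 kb in the gene body and in bins of distance from it, both sides together, at mml-1, mxl-1, mxl-2 and unc-119, with 1 line for each list, the pooled density of the chromosome dashed and the stretch without regions near mml-1 left out. At mml-1 the pooled density is 15.2 in the gene body and 4.41 at 50 to 100 kb. In replicates 1, 2 and 3 it is 6.52, 10.9 and 4.35 in the body and 3.56, 4.41 and 3.56 at 50 to 100 kb. The short bodies of mxl-1 and mxl-2 give a high density from a lone region, as in replicate 2 at mxl-2.

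The genes whose best ranks in the 3 replicates were most like those of mml-1, by Euclidean distance of log10 ranks over 18136 genes more than 50 kb away, were Y39G10AR.11, cdk-7 and F26F4.8. Their distances from mml-1 were 0.129, 0.129 and 0.137. Y39G10AR.11 and cdk-7, which encodes a cyclin-dependent kinase, are neighbours and share the same best regions, of ranks 169, 80 and 157 in replicates 1, 2 and 3. F26F4.8 had ranks 156, 79 and 136. The likeness rests on 3 values per gene, which at mml-1 were 128, 83 and 173 in replicates 1, 2 and 3. The 83 belongs to the replicate 2 region in F08F8.11, and the others to the peak of pooled rank 151. No single mml-1 region thus has these 3 ranks.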

How the data were processed

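ChIP-seq regions of tagged MML-1 were analysed in 3 replicates of L3 larvae, which form 1 group, so nothing was tested and no p-value is given. The authors deposited a list of regions per replicate, a pooled list and a reproducible list thresholded by the irreproducible discovery rate, per the labels. Replicates were pooled for the pooled list. Regions were ranked within a list by the signal that the authors deposited. The deposited −log10 q-value was not used. Neither aligner nor peak caller is given in the sources used here, and the control library and the ce10 lists were not analysed here. Depth is unknown because no file gives read totals.

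The ce11 lists were placed on WBcel235 with the gene models of Ensembl release 115. Windows were the gene body plus 5 kb by summit, motifs were searched within 100 bp of the summit, and summits within 200 bp were matched. Counts, ranks and shares were set beside all protein-coding genes or all regions. Regions are not samples, and exact 95% intervals cover counting error only. Named were the 3 genes, their network, unc-119, window neighbours, reproducible peaks, the 5 best regions per window and the 3 genes most like mml-1. Regions of mml-1 ranked 840, 1054 and 1289 and the coding exon shares were chosen after their values were seen. Members and lists were chosen with earlier results of these data known. Counting, ranking and motif steps were tested on simulated data. Alternatives varied the window, peak set, matching, list length and replicates. Scripts ran under Python 3.11.15. They used pandas 2.3.3 and numpy 2.4.6 for tables, SciPy 1.17.1 for intervals and matplotlib 3.10.9 for plots.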

Additional observations from a re-analysis of the deposited data

How the results depend on the processing

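Of 99 alternative values, 68 moved by less than the spread between replicates or stayed within 1.5 times the count, 31 moved further and 0 turned round. No paired analysis was possible because there is 1 group only. By construction, window size moved the counts: with 2 kb in place of 5 kb, mml-1 had 11 pooled regions and 7 per replicate, mxl-1 1.67 per replicate, and mxl-2 0 pooled regions and no best rank. With 10 kb, mml-1 had 17.7 per replicate, mxl-1 9 pooled regions, 7.67 per replicate and a best pooled rank of 460, and mxl-2 5 pooled regions and 3.67 per replicate. Thus, of the windows tried, only that of 10 kb held a pooled region among the first 1000 at mxl-1. With the first 1000 pooled regions in place of the reproducible list, mml-1 had 6, and with the 97 reproducible peaks of highest signal it had 0. With the first 1000 regions of each list the replicate means were 4 at mml-1 and 0 at mxl-1 and mxl-2, and with the first 10000 the mean at mxl-1 was 1.33.

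Matching within 500 bp gave 8 mml-1 regions with a summit in every replicate, in place of 3, and no share over all regions was taken. Without each replicate in turn the number was 3 to 7, and it was 6 without replicate 1 and 7 without replicate 3. Leaving out each replicate, the mean per replicate was 12 to 14.5 at mml-1, 3 to 4.5 at mxl-1 and 1 to 2.5 at mxl-2. The pooled densities around mml-1 that moved in a replicate list were all lower there. They were 8 per 10 kb within 5 kb in replicate 3, then 5, 5 and 4 from 5 to 10 kb and 5.5, 6 and 4.5 from 10 to 20 kb in replicates 1, 2 and 3. It was 1.81 from 20 to 50 kb in replicate 3 and 3.56 from 50 to 100 kb in replicates 1 and 3. With the stretch without regions kept, a choice made after seeing the data, the pooled density from 50 to 100 kb was 3.10 and the replicate mean 2.70, by construction of the longer denominator. The causes of these differences between lists were not tested. The lists carry no read totals, so a region missing from a list sets no limit on binding.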

Other observations

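The wider family of basic helix-loop-helix genes gives a setting for the 3 genes. Of 36 listed family members outside the Myc, Mondo and Max network, 2 had a reproducible peak in the gene body or within 5 kb, or 5.56%, against 1.88% of all protein-coding genes. The median of their best pooled ranks was 5446.5, against 5593 for all genes. One of the genes with a peak was hlh-11, with a peak of rank 158 on chromosome III, 9619022 to 9619305, 547 bp upstream of its start, with CACGTG within 100 bp of the summit. It ranked 197 in replicate 1 and 65 in replicate 3, and replicate 2 had no summit within 200 bp. The other was hif-1, which encodes the worm hypoxia-inducible factor, with a peak of rank 192 on chromosome V, 20778275 to 20778558, 1990 bp upstream and also with CACGTG. It ranked 628, 171 and 262 in replicates 1, 2 and 3. Like the mml-1 peak of rank 151, both lay in intergenic sequence upstream of a start and held CACGTG. The mml-1 peak of rank 175 was also intergenic and upstream but held none. Of all reproducible peaks, 59.5% held CACGTG, so holding it is not particular to these genes.

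By pooled density the genes ahead of mml-1 were mxl-3, mdl-1, sup-26 and brc-2, which had 14, 14, 17 and 15 pooled regions. As at mml-1, the replicate 3 density was the lowest at sup-26 and brc-2, with 4.99 and 4.79 regions per 10 kb against 10.7 and 7.18 in replicate 2. It was also the lowest of the replicates at mdl-1, 12.1, and at mxl-3, 8.96, where replicate 2 had the same value. The median gene had 2.63 regions per 10 kb in replicate 3, against 2.86 and 2.89 in replicates 1 and 2. The order was thus the same there, but the gap was much smaller than at mml-1, sup-26 and brc-2. At mml-1 the densities in replicates 1, 2 and 3 were 9.59, 10.3 and 6.85. In replicate 1 sup-26 had 11.4 and brc-2 12.8. The cause of the gap was not tested. The genes sup-26 and brc-2 were chosen after their values were seen.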
